A study of Mus musculus with 15 samples.

Results

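The effect of losing Id2 was examined in Zbtb46-GFP+ c-Kit-intermediate cells, a progenitor population of dendritic cells (DCs) sorted from mouse bone marrow. The comparison set the 3 Id2 KO arrays of these cells beside the 3 WT arrays, chosen by their titles, which made 6 of the 15 arrays of the series. Both groups carried the Zbtb46-GFP reporter, in which GFP marks cells that use the Zbtb46 gene, and both were labelled as coming from chimeric mice. The labels name neither the host, nor the donor cells, nor the Id2 allele, nor the age of the mice. Common DC progenitors (CDPs), the stage before, were available from the same kinds of chimera on 2 WT and 2 Id2 KO arrays. Zbtb46-GFP+ cells lacking Batf3, from reporter mice that were not labelled chimeric, filled 3 further arrays and served as a second reference. The question was what Id2 contributes to the gene programme of DC progenitors that have begun to express the Zbtb46 reporter.

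Id2 is a helix-loop-helix protein without a DNA-binding region, and it ties up the E proteins (Tcf3, Tcf4 and Tcf12), which bind DNA at E-boxes. Tcf4 drives the plasmacytoid DC (pDC), the DC that makes type I interferon, while the type 1 classical DC (cDC1), which cross-presents antigen to CD8 T cells, depends on Irf8, Batf3 and Id2. Nfil3 and Zeb2 also belong to this circuit: Nfil3 acts before Id2 in cDC1 development, and Zeb2 is held to repress Id2.

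All values are log2 of the deposited probe set signal, with 1 probe set per gene, and a difference of 1 is a 2-fold change. Replicates 2 and 3 of each group lay on a common scale, with median signals of 104.5 to 112.1, but replicate 1 of WT and of Id2 KO had medians of 23.8 and 24.1. These 2 arrays shared identical values in 17130 of 28853 probe sets (59.4%), while any 2 of the other 4 arrays shared at most 11. Tests therefore used replicates 2 and 3 (n = 2 a group), fitted in limma with the CDP and Batf3 KO arrays as 12 arrays in 6 groups, and the replicate 1 pair was read for direction alone. A gene was called at a Benjamini-Hochberg adjusted p under 0.05 over 19187 genes. Nothing in the labels says that replicates came from separate mice, so p-values measure the spread between these arrays, which may be technical. The arrays also differed in sex pattern: the Y-linked gene Kdm5d read 2.90, 5.54 and 5.78 in WT replicates 1, 2 and 3 and 4.05, 8.82 and 8.39 in Id2 KO, so sex and genotype cannot be told apart. Genes on X and Y were left out.

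Id2 itself (probe set 10399691, chromosome 12) read 12 and 11.47 in WT replicates 2 and 3 and 8.39 and 8.82 in Id2 KO. Replicate 1 read 10.68 in WT and 8.02 in Id2 KO. Every Id2 KO array lay below every WT array, also across the 2 scales. Id2 fell by 3.13 (SE 0.32, adjusted p = 5.47e-04), an 8.75-fold drop. In CDPs, where Id2 was already low, the means were 7.54 in WT and 6.52 in Id2 KO (n = 2 each). The Batf3 KO cells kept a mean of 11.35.

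Across the genome 331 of 19187 genes (1.73%) were called, 202 higher (1.05%) and 129 lower (0.672%) in Id2 KO. Among the genes called, the rise ran from 0.54 to 4.03 with a median of 1.16, and the fall from 0.58 to 4.55 in size with a median of 1.24. A change of at least 4-fold (log2 of 2) was reached by 12 higher and 22 lower genes. In the replicate 1 pair, 69 of the 202 higher genes were tied, and 126 of the 133 untied ones were higher in Id2 KO (94.7%, against 54.4% of all untied genes). Of the 129 lower genes 30 were tied, and 97 of the 99 untied ones were lower (98.0%, against 45.6% of all). The differences were smaller on that pair, with medians of 0.14 and -0.47. The count was 119 without Id2 KO replicate 2 and 106 without Id2 KO replicate 3, while the split turned to 103 higher and 165 lower without WT replicate 2. With all 15 arrays it was 0 without a term for the 3 arrays on another scale (32 genes at an unadjusted p under 0.05, against 1776 here) and 192 with that term.

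**Figure D1:**
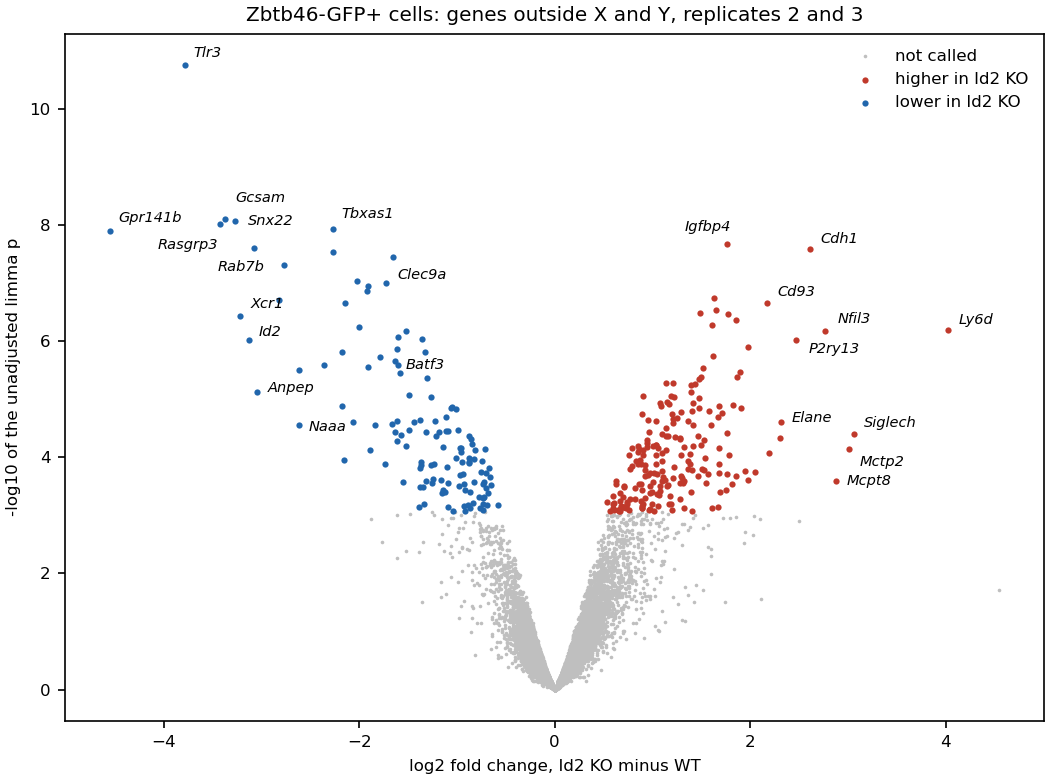
Each point is 1 gene outside X and Y, with its log2 fold change (Id2 KO minus WT, replicates 2 and 3) on the x axis and -log10 of its unadjusted limma p on the y axis; colours mark the 202 genes called higher and the 129 called lower in Id2 KO. Lower genes of the cDC1 programme reach -4.55 (Gpr141b) on the left, and Ly6d lies at 4.03 on the right.

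The cDC1 programme was lower in cells without Id2. Of 28 cDC1 genes tested, leaving out Id2, 17 fell and 0 rose (60.7% lower, against 0.672% of all genes), with a median of -1.67 beside -0.01 over all genes. Members of this list and of those below were chosen with earlier results of these data known. The shares therefore describe the lists and are no independent test. The genes that fell were Gpr141b, Tlr3, Rasgrp3, Gcsam, Snx22, Xcr1, Cd36, Rab7b, Hepacam2, Naaa, Ifi205, Gatm, Ppt1, Clec9a, Batf3, Cadm1 and Wdfy4. In bulk samples, fewer cells of a type and less RNA per cell cannot be told apart. The count stayed between 15 and 17 with each of the 4 arrays left out, and it was 15 on all 15 arrays with the term.

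The 5 receptors of the cDC1 list described here, all picked from the genes called, fell by 1.72 (Clec9a) to 4.55 (Gpr141b). Xcr1, the receptor for the chemokine XCL1 by which T and NK cells attract cDC1s, read 8.99 and 9.86 in WT replicates 2 and 3 and 6.29 and 6.12 in Id2 KO. It fell by 3.22 (SE 0.30, adjusted p = 2.99e-04), to near the WT CDP mean of 5.77. Tlr3, the endosomal sensor of double-stranded RNA, read 11.56 and 11.59 in WT and 7.77 and 7.82 in Id2 KO. The replicates of each group lay within 0.05 of each other, and Tlr3 fell by 3.78 (SE 0.14, adjusted p = 3.37e-07), the smallest p of any gene. On replicate 1 Tlr3 read 9.79 in WT and 6.76 in Id2 KO. Clec9a, the receptor for dead-cell debris, read 11.37 and 11.66 in WT and 9.80 and 9.79 in Id2 KO, and fell by 1.72 (SE 0.14, adjusted p = 1.38e-04). Unlike Xcr1, it was well expressed in CDPs (WT mean 9.79), a stage at which Id2 KO cells read 9.53. Cd36, a scavenger receptor, read 7.78 and 8.44 against 4.74 and 5.31, and the orphan receptor Gpr141b read 9.81 and 10.94 against 6.11 and 5.53. Gpr141b had the largest fall of all genes called, 4.55 (SE 0.30, adjusted p = 4.03e-05), or 23.5-fold. The groups did not overlap in any of these 5 receptors in replicates 2 and 3, but this held for every gene called and for 35.1% of all genes. Each of the 5 was lower in Id2 KO in the replicate 1 pair.

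Other members of the cDC1 list fell too. Batf3, the AP-1 partner of Irf8 in cDC1s, read 9.99 and 9.85 in WT and 8.21 and 8.38 in Id2 KO, a fall of 1.63 (SE 0.18, adjusted p = 0.00103) that left it above its WT CDP mean of 7.14. Wdfy4, which cross-presentation by cDC1s requires, read 12.66 and 12.69 against 11.66 and 11.93 and fell by 0.88 (adjusted p = 0.0120). Rab7b, a small GTPase of the endosomal path, read 10.93 and 11.09 against 8.09 and 8.38 and fell by 2.77. Naaa, an acid amidase of lysosomes, read 12.60 and 12.84 against 10.33 and 9.88 and fell by 2.62 (adjusted p = 0.00525), a call lost without Id2 KO replicate 3. Cadm1, an adhesion molecule that marks cDC1s across species, fell less, from 7.54 and 8.13 to 7.10 and 6.74 (0.92, adjusted p = 0.0497). Gcsam, Rasgrp3 and Snx22, which are cDC1 genes of signalling and sorting, fell by 3.37, fell by 3.42 and fell by 3.27. The call of Snx22 was lost on all 15 arrays with the term. Of the 17 genes, 16 were lower in Id2 KO in the replicate 1 pair and Cadm1 was tied at 5.74.

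Not every cDC1 gene was called. Irf8, the factor on which the lineage rests, read 12.76 and 13 in WT and 12.99 and 13 in Id2 KO, a difference of 0.12 (SE 0.15, adjusted p = 0.986), and was tied at 8.72 in the replicate 1 pair. Itgae (CD103), which cDC1s gain late, read 6.62 and 6.78 against 6.07 and 6.17 (-0.58, adjusted p = 0.0830). Cd8a differed by 0.03, and Ly75 (CD205) read 7.56 and 8.29 against 7.19 and 7.20 (-0.73, adjusted p = 0.238). A missed threshold does not show that Irf8, Itgae or Ly75 was the same. Nor does a tie, since 11992 of 19187 genes were tied in the replicate 1 pair.

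**Figure D2:**
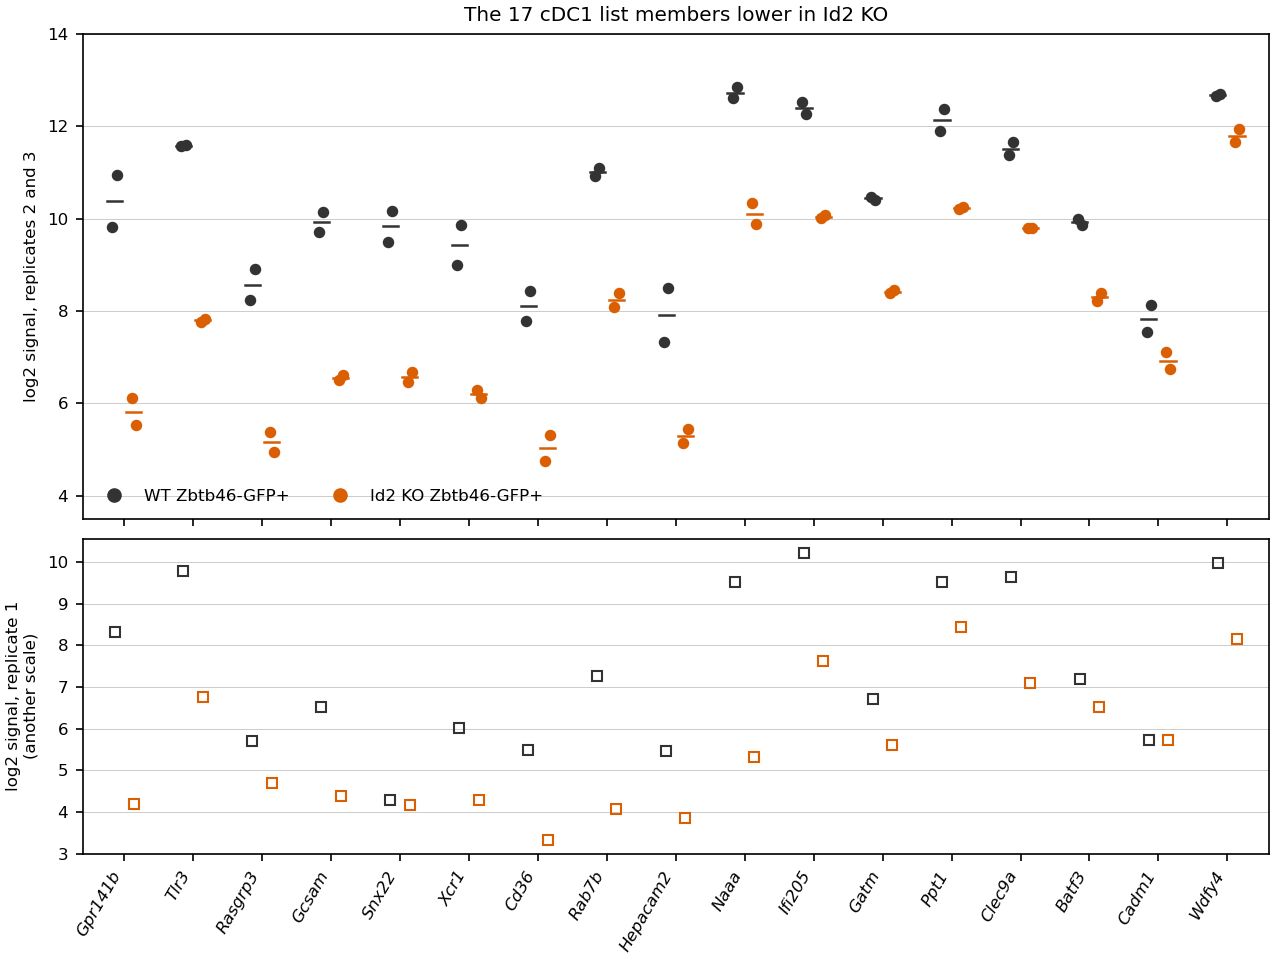
The 17 cDC1 genes lower in Id2 KO, in order of the size of the change. The upper panel gives log2 signal of replicates 2 and 3 (points) with their mean (line) for WT and Id2 KO, and the lower panel gives the replicate 1 pair on its own scale, where 16 of the 17 are lower in Id2 KO and Cadm1 is tied.

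Other genes with the largest falls lay outside the cDC1 list. Anpep (CD13), an aminopeptidase of myeloid cells, read 10.97 and 11.88 in WT and 9.03 and 7.73 in Id2 KO, and fell by 3.04 (SE 0.38, adjusted p = 0.00252). P3h2, a collagen prolyl hydroxylase, fell by 2.82, and Tbxas1, thromboxane synthase, fell by 2.27. Cd226, an adhesion receptor of lymphocytes and myeloid cells, read 10.46 and 10.76 against 8.32 and 8.36 (fall of 2.27). Treml4, Fgl2, Adgre5 (CD97) and Fgd6 fell by 2.17, 2.17, 2.15 and 2.14. All 8 were also lower in Id2 KO in the replicate 1 pair, by 0.19 (Treml4) to 2.20 (Cd226). Adgre5 lost its call without WT replicate 3 and without either Id2 KO array, and Treml4 on all 15 arrays with the term.

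Genes of the pDC moved the other way. Of 25 pDC genes tested, 15 rose and 0 fell in Id2 KO (60% higher, against 1.05% of all genes), with a median of 1.36 beside -0.01. They were Ly6d, Siglech, Mctp2, Ptprf, Blnk, Tex2, Tcf4, Upb1, Bst2, Lair1, Pacsin1, Cox6a2, Cd8b1, Slc44a2 and Rpgrip1. WT replicate 3 lay above WT replicate 2 in 14 of the 15, by a median of 0.48. The count was 14 without WT replicate 3, 4 without WT replicate 2, 2 without Id2 KO replicate 2 and 4 without Id2 KO replicate 3, while the list median stayed between 1.14 and 1.53. It was 10 on all 15 arrays with the term. In the replicate 1 pair 13 of the 15 were higher in Id2 KO and 2 were tied. The order of the WT arrays was not particular to pDC genes. WT replicate 3 also lay above WT replicate 2 in 14 of the 17 called cDC1 genes (median gap 0.44). It did so in 0 of the 6 called neutrophil genes described below (median gap -0.78).

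Siglech, the sialic acid-binding receptor that identifies mouse pDCs and their precursors, read 8.19 and 9.32 in WT and 11.86 and 11.78 in Id2 KO. It rose by 3.06 (SE 0.46, adjusted p = 0.00664), or 8.37-fold, and by 3.48 in the replicate 1 pair. Ly6d, a surface protein of lymphoid progenitors and of pDC precursors, read 6.68 and 7.30 against 11.16 and 10.88. Its rise of 4.03 (SE 0.39, adjusted p = 4.26e-04), or 16.3-fold, was the largest of any gene called, and both Id2 KO arrays lay above the WT CDP mean of 8.02. In the replicate 1 pair Ly6d read 6.03 in WT and 6.47 in Id2 KO, a difference of only 0.44. Bst2 (PDCA-1), an interferon-induced surface protein used to sort pDCs, read 11.12 and 11.33 against 12.76 and 12.70 and rose by 1.5 (adjusted p = 0.00881). Pacsin1, an endocytic adaptor of pDCs, read 6.41 and 6.75 against 7.97 and 7.74 and rose by 1.28 (adjusted p = 0.00739). Blnk, an adaptor of B cell receptor signalling that pDCs also use, read 5.98 and 6.85 against 8.59 and 8.20 (rise of 1.98, adjusted p = 0.0216). Siglech, Mctp2, Ptprf and Blnk lost their calls without either Id2 KO array, and Mctp2 and Blnk also without WT replicate 2, whereas Ly6d and Tex2 kept theirs with each of the 4 arrays left out.

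The other 10 pDC genes tested were not called, and 5 of them, picked after their values were seen, are given here. Irf7, the factor for high interferon output, read 10.02 and 10.38 in WT and 10.11 and 9.86 in Id2 KO (-0.22, adjusted p = 0.971). Tlr9, the DNA sensor, differed by 0.11, and the phospholipase Pld4 by -0.34. Spib, a factor of mature pDCs, read 7.02 and 8.28 against 9.87 and 9.31, a gap of 1.94 (SE 0.51) that missed the threshold (adjusted p = 0.106). Ccr9, a homing receptor of pDCs, read 7.27 and 7.95 against 8.67 and 8.08 (0.77, adjusted p = 0.180). Runx2 and Klk1, also on the list, were not analysed here, and Tlr7 was left out with the genes on X.

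**Figure D3:**
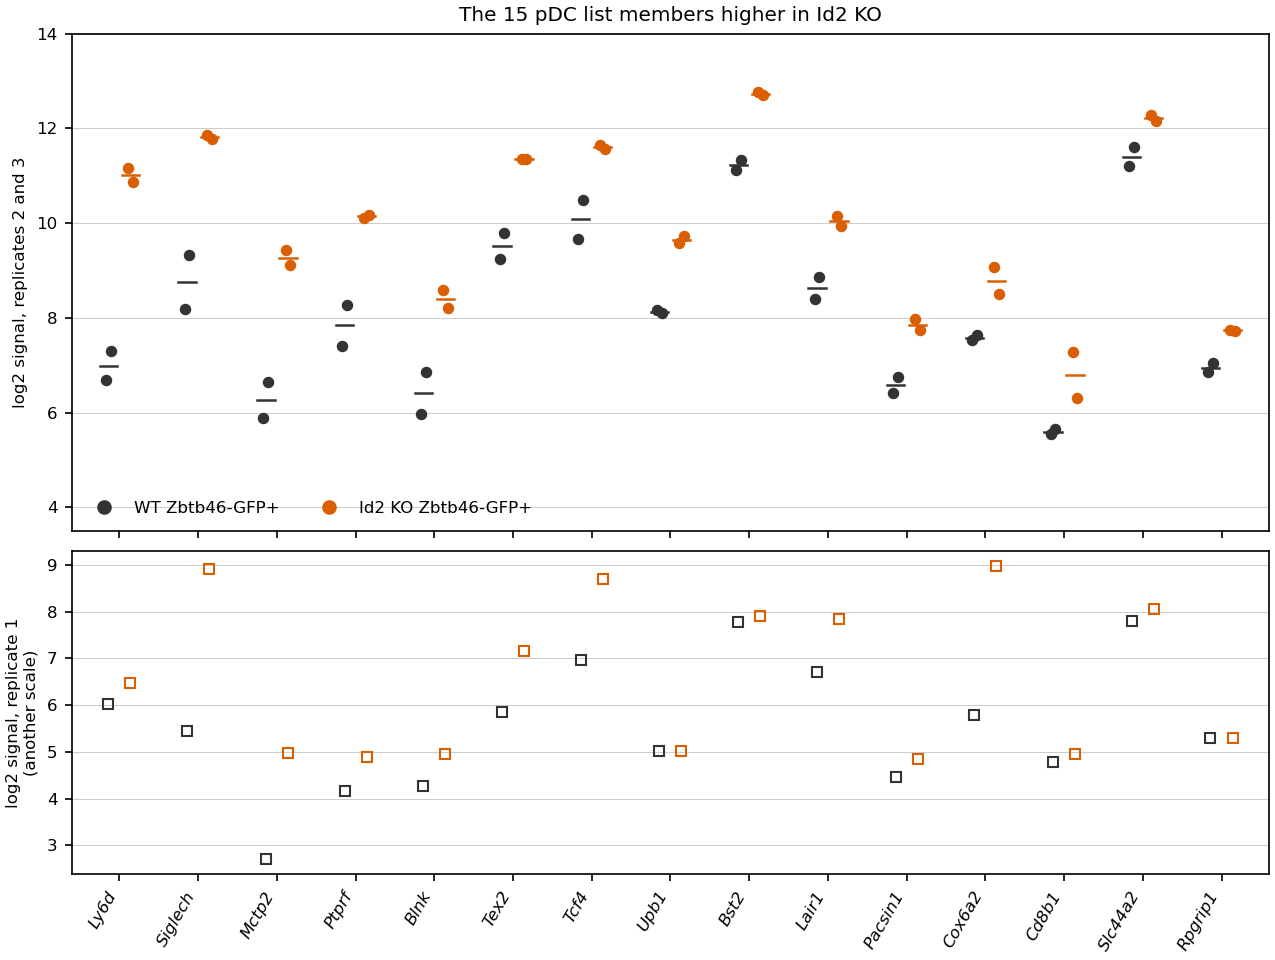
The 15 pDC genes higher in Id2 KO, drawn as for the cDC1 genes: log2 signal of replicates 2 and 3 with their mean above, and the replicate 1 pair on its own scale below. In the upper panel Ly6d, Siglech and Mctp2 show the widest gaps, and the WT points lie further apart than the Id2 KO points in most genes.

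Because Id2 works through E proteins, promoters were searched for E-boxes over 250 bases before each start site on both strands, in RefSeq promoters of GRCm38.p6, which matched 15008 of the 19187 genes. The general E-box CANNTG lay in 65.7% of all promoters searched. Its form CAGGTG, which E proteins favour and which reads as CACCTG on the opposite strand, lay in 19.5% of all, in 24.3% of promoters of the genes called higher (36 of 148 matched) and in 15.7% of those called lower (16 of 102). CAGCTG, a palindrome that like CAGGTG is counted within CANNTG, lay in 14.5% of all, 17.6% of higher and 21.6% of lower genes. The AP-1 motif TGANTCA, the kind that Batf3 binds, lay in 7.12% of all, 4.73% of higher and 11.8% of lower genes. Among pDC genes 8 of 20 matched promoters held CAGGTG (40.0%), which were 4 of the 11 matched genes that were called and 4 of the others. Among cDC1 genes 4 of 24 promoters held it (16.7%), including 2 of the 15 matched genes called. A match of letters is a description and no site of binding.

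The windows of 60 bases around CAGGTG in the 4 called pDC genes, and in the 2 called cDC1 genes that hold it, are shown because these genes moved in opposite directions with the same motif near their starts. Each is read along the gene's strand, with the motif in capitals. Siglech is at chr7:55768124-55768183 (+), with the motif starting 20 bases before the start site; Bst2 at chr8:71537645-71537704 (-), 205 bases; Blnk at chr19:40994349-40994408 (-), 160 bases; Mctp2 at chr7:72306713-72306772 (-), 150 bases. Gatm is at chr2:122611316-122611375 (-), 71 bases, and Hepacam2 at chr6:3494616-3494675 (-), 150 bases.
Siglech: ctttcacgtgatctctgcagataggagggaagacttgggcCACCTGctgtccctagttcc
Bst2: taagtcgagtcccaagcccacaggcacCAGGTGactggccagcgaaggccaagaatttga
Blnk: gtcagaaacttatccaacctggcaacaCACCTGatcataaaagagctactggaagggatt
Mctp2: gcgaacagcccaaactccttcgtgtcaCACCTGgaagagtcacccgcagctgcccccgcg
Gatm: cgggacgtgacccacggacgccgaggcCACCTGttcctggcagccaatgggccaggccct
Hepacam2: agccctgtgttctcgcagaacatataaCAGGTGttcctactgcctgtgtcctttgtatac
The first 4 genes rose (Siglech 3.06, Bst2 1.5, Blnk 1.98, Mctp2 3.01), while Gatm and Hepacam2 fell by 2.02 and 2.62.

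The E proteins and the factors around Id2 were unequal. Of 18 Id and E protein genes and partners tested, 4 rose (22.2%, against 1.05% of all genes) and 0 fell, namely Tcf4, Zeb2, Hes6 and Tcf12, with a list median of -0.01, the same as over all genes. Tcf4 (E2-2), the E protein that specifies pDCs, read 9.67 and 10.49 in WT and 11.66 and 11.57 in Id2 KO and rose by 1.54 (SE 0.26, adjusted p = 0.0119). In the replicate 1 pair it read 6.96 and 8.70. Tcf12 (HEB) read 9.76 and 10.11 against 10.60 and 10.69 and rose by 0.71 (adjusted p = 0.0452). Tcf3 (E2A) read 8.88 and 8.89 against 9.20 and 9.08, a difference of 0.25 (SE 0.17, adjusted p = 0.848). The other inhibitors differed by 0.09 (Id1), -0.40 (Id3, adjusted p = 0.773) and -0.26 (Id4), and none was called. Tcf4, Zeb2 and Tcf12 lost their calls without WT replicate 2 and without either Id2 KO array, and Hes6 without either Id2 KO array. The list count was 1 higher and 1 lower without WT replicate 2, 5 higher without WT replicate 3, and 0 without either Id2 KO array.

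Nfil3 gave the clearest change among the factors. It read 7.49 and 7.57 in WT and 10.45 and 10.14 in Id2 KO, a rise of 2.77 (SE 0.27, adjusted p = 4.26e-04) or 6.81-fold. Replicate 1 read 6.23 in WT and 7.42 in Id2 KO. Its CDP means were 9.69 in WT and 9.85 in Id2 KO, so the WT mean was lower at the Zbtb46-GFP+ stage than at the CDP stage and the Id2 KO mean was not. Zeb2 read 7.74 and 8.75 against 9.62 and 9.51 and rose by 1.32 (SE 0.29, adjusted p = 0.0452), which left Id2 KO cells near the CDP means of 9.89 and 9.88. Its call did not hold with the replicate number as a block. Runx1, a factor of stem and progenitor cells, rose by 1.22 (adjusted p = 0.0150), a call lost without WT replicate 2, without either Id2 KO array and on all 15 arrays with the term. Bcl11a, which pDCs and B cells need, read 10.01 and 10.81 against 11.57 and 11.39 (1.06, adjusted p = 0.0824). Irf4, a factor of the type 2 classical DC (cDC2), read 7.41 and 8.59 against 8.83 and 8.46 (0.64, adjusted p = 0.662). Of 36 DC transcription factors tested, 5 rose (13.9%, against 1.05% of all genes), namely Nfil3, Tcf4, Zeb2, Runx1 and Ikzf1. The 3 that fell (8.33%, against 0.672%) were Batf3, Zbtb46 and Irf5, and the list median was 0.10.

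The genes on which the cells were sorted were measured as well. Zbtb46, the reporter's gene, read 7.18 and 6.99 in WT and 5.95 and 6.08 in Id2 KO and fell by 1.06 (SE 0.14, adjusted p = 0.00361). The Id2 KO values lay at the level of CDPs, where the means were 6.0 in WT and 5.82 in Id2 KO, although the Id2 KO cells were labelled Zbtb46-GFP+. Kit read 11.05 and 11.37 in WT and 10.34 and 10.32 in Id2 KO and fell by 0.88 (SE 0.15, adjusted p = 0.0135), within a gate named c-Kit-intermediate in both groups. The calls of Zbtb46 and Kit were lost without Id2 KO replicate 2, that of Zbtb46 also on all 15 arrays with the term, and that of Kit without WT replicate 3 and without Id2 KO replicate 3. Flt3, the receptor that sustains DC development, differed by 0.16 (adjusted p = 0.986), and Csf1r, the receptor for M-CSF, read 8.83 and 9.40 against 10.19 and 10.33 (rise of 1.15, adjusted p = 0.0244), a call lost without WT replicate 2 and without either Id2 KO array. H2-Ab1, a class II gene that reports neither Zbtb46 nor GFP, read 13.75 and 13.79 in WT and 13.44 and 13.35 in Id2 KO Zbtb46-GFP+ cells against a mean of 8.44 in Id2 KO CDPs.

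**Figure D4:**
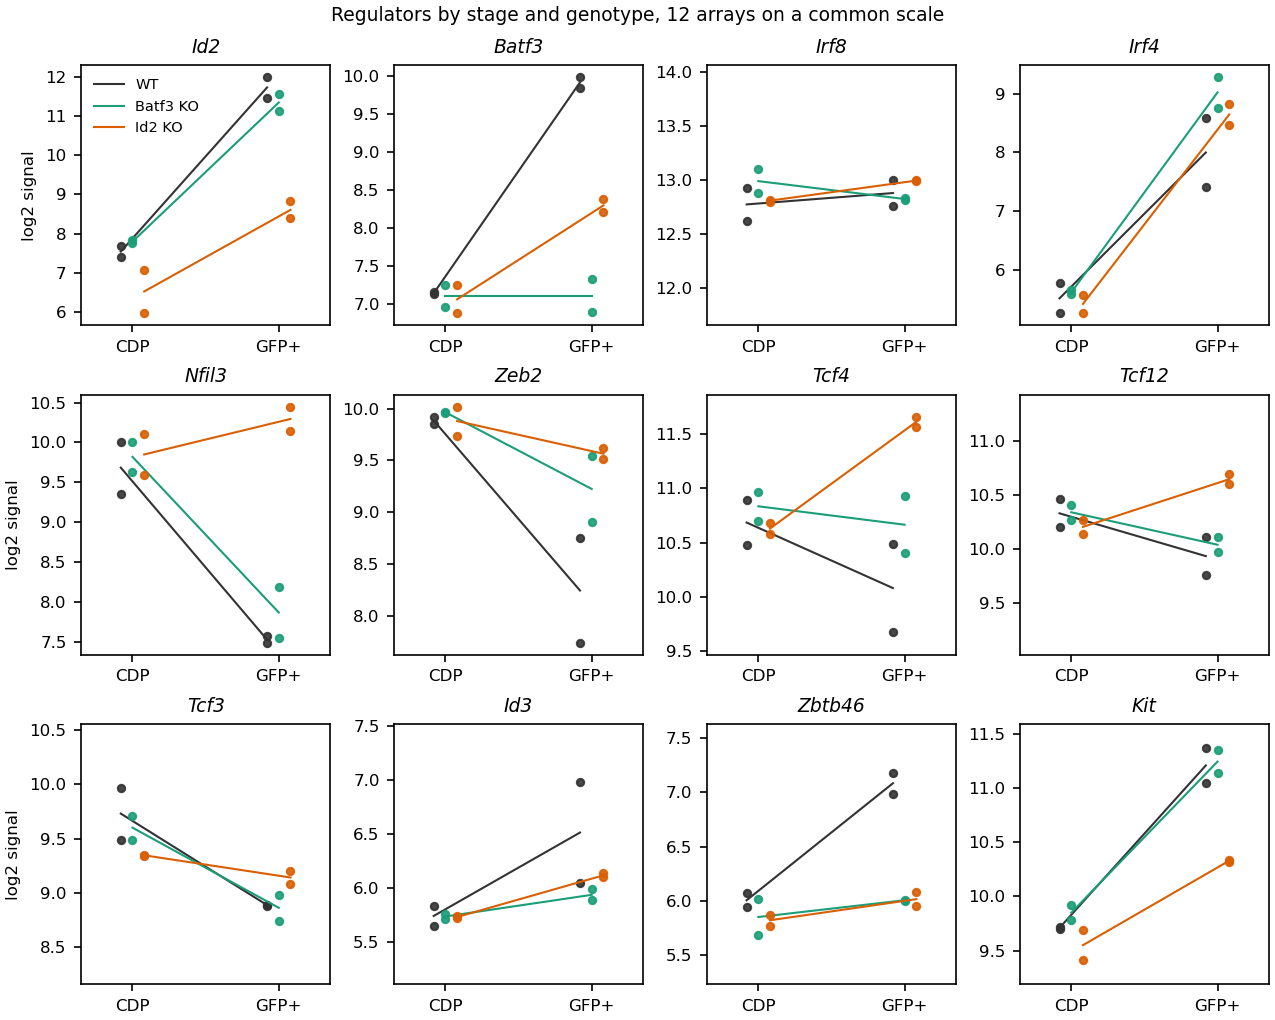
Log2 signal of 12 regulators in CDPs and in Zbtb46-GFP+ (GFP+) cells of WT, Batf3 KO and Id2 KO, on the 12 arrays of a common scale; points are arrays and lines join group means. In Id2 KO the Nfil3 mean is no lower in GFP+ cells than in CDPs, where the WT mean is, Zbtb46 stays at its CDP level in both knockouts, and Irf8 lies together in all 3 genotypes.

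Of 24 haematopoietic progenitor genes tested, 10 rose (41.7%, against 1.05% of all genes), 1 fell (Kit; 4.17%, against 0.672%) and 13 were not called, with a median of 0.72. Cd93, a receptor of early progenitors, read 7.39 and 7.81 in WT and 9.62 and 9.92 in Id2 KO and rose by 2.17 (SE 0.19, adjusted p = 2.12e-04), still below its CDP means of 11.63 and 11.47. Igfbp4 read 7.0 and 6.97 against 8.77 and 8.71 (rise of 1.76, SE 0.12, adjusted p = 5.50e-05), and Myb, a factor of proliferating progenitors, rose by 1.21. Adgrg1 (GPR56), Adgrg3, Rab44 and Sox4 rose by 1.3, 1.21, 1.02 and 0.89, and the call of Adgrg1 was lost with any of the 4 arrays left out and on all 15 arrays with the term. Cd34 differed by -0.08, and Meis1, Hlf and Mecom, factors of stem cells, by 0.03, -0.02 and -0.18. The count was 7 without WT replicate 3, 6 without Id2 KO replicate 2 and 4 without Id2 KO replicate 3, and Cd93 and Igfbp4 kept their calls with each of the 4 arrays left out.

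The progenitor list shares the granule proteases with the neutrophil list, of which 6 of 19 genes rose (31.6%, against 1.05% of all genes), 0 fell and 13 were not called, with a median of 1.37. The 6 were Elane, Ms4a3, Prtn3, Fcnb, Ctsg and Cebpe. Elane, neutrophil elastase, read 7.85 and 7.13 in WT and 9.79 and 9.82 in Id2 KO (rise of 2.32, adjusted p = 0.00492), a call lost without Id2 KO replicate 3 and on all 15 arrays with the term. Prtn3, proteinase 3, read 8.97 and 8.13 against 10.48 and 10.42 (rise of 1.90). Genes of later neutrophils were high but not called: S100a8 read 11.31 and 11.44 against 12.86 and 12.76 (1.43, adjusted p = 0.424), and Camp 11.70 and 11.72 against 13.12 and 13.21 (1.45, adjusted p = 0.300). The mean signal over the 19 neutrophil genes, on the linear scale, was 1070 and 1140 in WT replicates 2 and 3 and 2740 and 2860 in Id2 KO. On the replicate 1 arrays it was 654 and 869. The part of neutrophils or their RNA in the result was not tested. The neutrophil count was 2 without either Id2 KO array, 4 without WT replicate 3, 7 without WT replicate 2 and 3 on all 15 arrays with the term. The replicate block gave 14, and a fit on the compared arrays alone gave 12.

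Fewer markers of other cells were called, beside 1.05% higher and 0.672% lower over all genes. Mcpt8, a mast cell protease of basophils, read 6.01 and 7.95 in WT and 10.12 and 9.60 in Id2 KO (rise of 2.88, SE 0.54, adjusted p = 0.0220), but was 6.79 and 6.81 in the replicate 1 pair. It was the only 1 of 19 basophil and mast cell genes called (5.26%). The call of Mcpt8 was lost without WT replicate 2, without either Id2 KO array and on all 15 arrays with the term. Of 20 monocyte and macrophage genes, F13a1, Csf1r and Cx3cr1 rose by 1.86, 1.15 and 0.88 and Ccr2 fell by 0.87, with a median of -0.13. Of 28 lymphoid and B lineage genes, Ly6d and Blnk rose (7.14%), both also pDC genes, and the median was 0.11. Il7r read 5.34 and 5.79 against 7.10 and 6.10 (1.04, adjusted p = 0.254), and Pax5, Ebf1 and Rag1 differed by 0.06, -0.07 and 0.02. Hemgn was the 1 erythroid gene of 11 that rose (1.15, 9.09% of the list). Nkg7 and Thy1 were the 2 of 23 T, NK and innate lymphoid genes that rose (1.42 and 0.76, 8.7% of the list). Nkg7 lost its call without either Id2 KO array, and Thy1 also without WT replicate 3.

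Of 26 cDC2 genes 1 rose (3.85%, against 1.05% of all genes) and 0 fell, with a median of 0.09. The count was 4 higher without WT replicate 3, 0 higher and 1 lower without WT replicate 2, 3 higher after quantile normalization, and 6 higher and 1 lower with the 2 sets of arrays as a block. The mean linear signal over the list was 627 and 1020 in WT replicates 2 and 3 and 1200 and 1110 in Id2 KO. The gene that rose was Cd209d, a lectin of the DC-SIGN family, which read 6.58 and 6.87 in WT and 9.07 and 8.01 in Id2 KO (rise of 1.82, SE 0.35, adjusted p = 0.0231). Its call was lost without Id2 KO replicate 2, without either WT array and on all 15 arrays with the term. Sirpa, which cDC2s carry, read 9.73 and 11 against 11.45 and 11.48 (1.10, adjusted p = 0.173). Cd209a read 10.49 and 11.58 against 11.65 and 11.18, so the groups overlapped.

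Most functional lists had few genes called, beside 1.05% higher and 0.672% lower over all genes. None of 14 class I peptide-loading genes was called (median -0.11). Of 15 class II genes, the proteases Ctsl and Lgmn rose by 1.48 and 0.98 (13.3% of the list). Ciita, the master activator of class II, fell by 0.97 (adjusted p = 0.0184, 6.67% of the list). Cd74, H2-Aa and H2-Eb1 differed by -0.62, -0.33 and -0.39 without being called. Ciita was tied at 7.32 in the replicate 1 pair and lost its call without WT replicate 3, without Id2 KO replicate 3 and on all 15 arrays with the term. Of 26 cell division genes 1 rose (3.85%), Ccne1 (0.57, adjusted p = 0.0492), but the list median was 0.44, and Mki67 read 12.56 and 12.10 against 12.44 and 12.48 (0.13). Of 21 interferon-stimulated genes 1 rose (4.76%), Cmpk2, and the median was 0.01. In the p200 family of DNA sensors Ifi205 and Ifi207 fell (22.2%), by 2.36 and 0.88, and 7 of 9 were not called. Lgmn and Ifi207 lost their calls without WT replicate 2 and without either Id2 KO array, and Ccne1 and Cmpk2 with any of the 4 arrays left out.

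Receptors changed in both directions, and over all genes 1.05% were called higher and 0.672% lower. Among 15 chemokine receptors, Ccr1 rose by 2.05 and Cx3cr1 by 0.88 (13.3%), and Xcr1 and Ccr2 fell (13.3%). Among 21 cytokine receptors, Csf2rb2 and Csf1r rose by 1.51 and 1.15 (9.52%), and Ifngr1 (fall of 1.44) and Kit fell (9.52%). Of 11 Toll-like receptor genes only Tlr3 was called, lower (9.09%). Of 21 immediate early genes Btg2 fell by 0.95 (4.76%), and the list median was -0.26. Ccr1 lost its call without either WT array and without Id2 KO replicate 2, and Csf2rb2 and Cx3cr1 without WT replicate 2 and without either Id2 KO array. Ccr2 lost its call with any of the 4 arrays left out and after centring on the 75th percentile, Btg2 without WT replicate 3 or either Id2 KO array, and Ifngr1 without Id2 KO replicate 3.

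**Figure D5:**
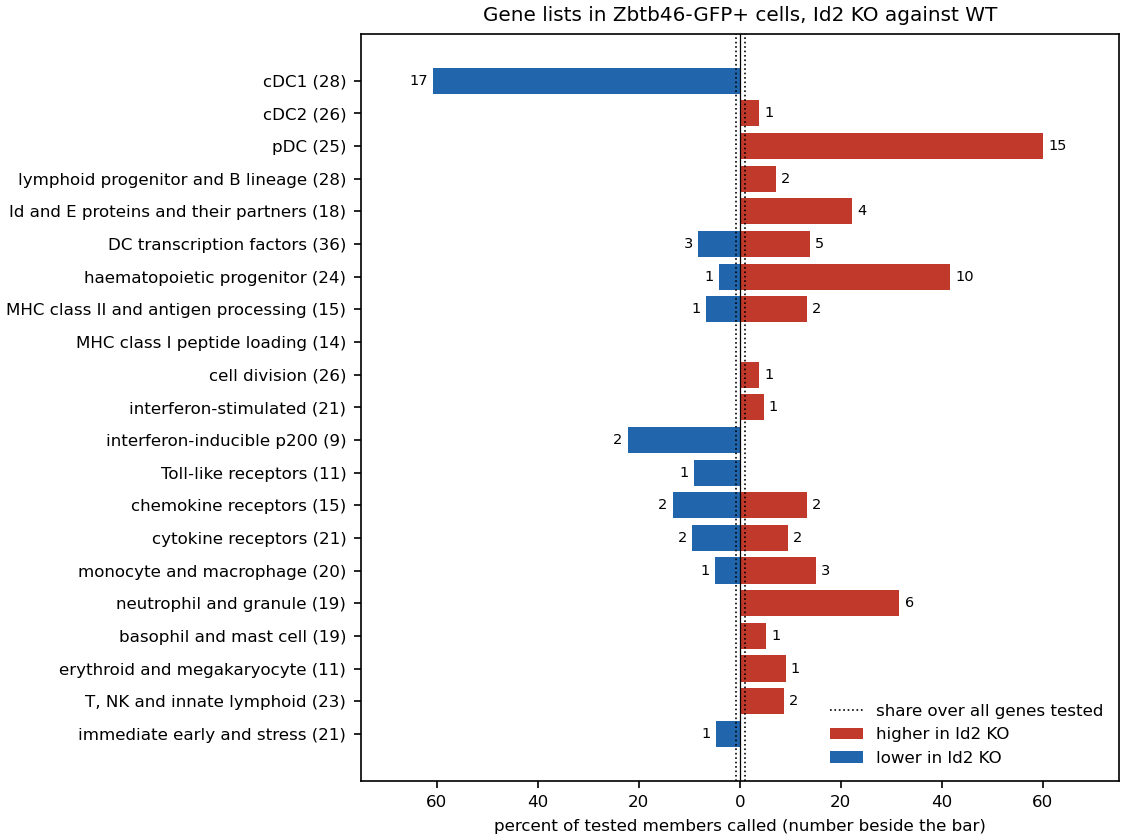
Percent of the tested members of each of 21 gene lists called higher (right) or lower (left) in Id2 KO Zbtb46-GFP+ cells, with the number called beside each bar and the number tested after each name. Dotted lines mark the shares over all genes, 1.05% and 0.672%; the cDC1 bar reaches 60.7% on the left and the pDC bar 60% on the right.

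Several of the largest rises fell outside these lists. Cdh1 (E-cadherin), an adhesion protein of epithelia that some DCs carry, read 6.68 and 6.89 in WT and 9.62 and 9.17 in Id2 KO (rise of 2.61, SE 0.19, adjusted p = 5.50e-05). In the replicate 1 pair Cdh1 was 0.33 higher in Id2 KO. P2ry13, a receptor for ADP, read 7.07 and 6.87 against 9.56 and 9.32 (rise of 2.47, adjusted p = 5.47e-04), and was 1.60 higher in Id2 KO in the replicate 1 pair. Slc49a4 and Capg, an actin-capping protein, rose by 2.19 and 1.98. Cd33, a sialic acid-binding receptor of myeloid cells, Mgst2 and Cd63, a lysosomal tetraspanin, rose by 1.91, 1.87 and 1.86. Cdh1, P2ry13, Capg and Mgst2 kept their calls with each of the 4 arrays left out. Cd33 lost its call without Id2 KO replicate 3, Cd63 without WT replicate 3 or either Id2 KO array, and Slc49a4 without WT replicate 2 or either Id2 KO array.

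Batf3 KO cells gave a second view of the same stage, and since both knockouts are read against the same WT arrays, their values are set side by side and the direct difference between the knockouts is tested. That difference was called in 116 of 19187 genes (0.605%), 51 higher (0.266%) and 65 lower (0.339%) in Id2 KO than in Batf3 KO. It was 55 and 49 without Batf3 KO replicates 2 and 3, and 37 and 46 without Id2 KO replicates 2 and 3. Batf3 KO cells were not from mice labelled chimeric, so genotype and kind of mouse cannot be told apart here. The Y-linked gene Kdm5d read 8.97 and 8.32 in Batf3 KO replicates 2 and 3, against 8.82 and 8.39 in Id2 KO and 5.54 and 5.78 in WT. Both knockouts thus differ from WT in sex pattern as well as genotype, and values they share against WT cannot be told apart from sex.

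Of the 28 cDC1 genes, 4 were lower and 2 higher in Id2 KO than in Batf3 KO, beside 0.339% lower and 0.266% higher over all genes. The other 22 had no called difference, which does not show that they were the same. Against WT, Xcr1 was at -3.22 in Id2 KO and -3.23 in Batf3 KO, with a difference of 0.01 between them (SE 0.30). Gpr141b was at -4.55 and -4.48 (difference -0.07, SE 0.30), and Snx22 at -3.27 and -3.19 (difference -0.08, SE 0.21). A further set was lower in Id2 KO than in Batf3 KO: Tlr3 had a Batf3 KO mean of 9.34 against 7.79 in Id2 KO (-1.55, SE 0.14, adjusted p = 4.98e-04). Ifi205 (-1.78), Hepacam2 (-1.70) and Rab7b (-1.29) were the other cDC1 genes lower in Id2 KO than in Batf3 KO. Batf3 was higher in Id2 KO, at 8.21 and 8.38 against 6.89 and 7.32 in cells that lack it (1.19, adjusted p = 0.0153). Fcrla, an Fc receptor-like gene on both the cDC1 and the pDC list, was higher in Id2 KO by 2.24 (adjusted p = 2.89e-04). It read 9.29 and 8.99 in Id2 KO, 8.57 and 9.04 in WT and a mean of 6.90 in Batf3 KO. Ifi205 and Fcrla lie on chromosome 1, as does the targeted Batf3 gene. In CDPs, Ifi205 read 9.37 and 9.28 in Batf3 KO, 7.28 and 6.71 in WT, and 7.16 and 6.33 in Id2 KO. The part of shared chromosome position in these differences was not tested.

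Among pDC genes 5 of 25 were higher in Id2 KO than in Batf3 KO (Ly6d, Lair1, Rpgrip1, Fcrla and Cd8b1) and 0 lower. Over all genes 0.266% were higher, and the list median was 0.92. Ly6d had a Batf3 KO mean of 8.14 and differed by 2.87 (SE 0.39, adjusted p = 0.00868). Siglech had a Batf3 KO mean of 9.82, between WT and Id2 KO, and its difference of 2.00 (SE 0.46) was not called (adjusted p = 0.126). Nor was that of Tcf4 (0.95, adjusted p = 0.233). Nfil3 was near the WT level in Batf3 KO, at 8.19 and 7.55, and differed by 2.43 (SE 0.27, adjusted p = 0.00242). Against WT, Zbtb46 was at -1.06 in Id2 KO and -1.08 in Batf3 KO, and Zeb2 at 1.32 and 0.98. Kit was lower in Id2 KO than in Batf3 KO, whose arrays read 11.14 and 11.35 (-0.91, adjusted p = 0.0252).

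The largest differences between the knockouts lay partly in genes that Id2 loss left near WT. Hpgd, the enzyme that breaks down prostaglandins, read 7.89 and 7.95 in WT, 8.37 and 7.67 in Id2 KO and 10.82 and 10.63 in Batf3 KO (-2.71, SE 0.25, adjusted p = 5.91e-04). Slamf6, a receptor of the SLAM family, read 7.55 and 7.63 in WT, 9.22 and 8.92 in Id2 KO and 6.64 and 6.49 in Batf3 KO, and so lay on opposite sides of WT (2.50, SE 0.19, adjusted p = 2.89e-04). Cdh1 read 6.56 and 6.84 in Batf3 KO, as in WT, and differed by 2.69 (adjusted p = 2.89e-04).

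Whether the effect of losing Id2 differed between stages was tested as an interaction, the Id2 KO minus WT difference in Zbtb46-GFP+ cells minus that in CDPs. It was called in 58 of 19187 genes (0.302%), 22 toward higher (0.115%) and 36 toward lower (0.188%) at the Zbtb46-GFP+ stage. The count was 28 without WT CDP replicate 1, 36 without Id2 KO CDP replicate 1, 22 without Id2 KO Zbtb46-GFP+ replicate 2 and 21 without Id2 KO Zbtb46-GFP+ replicate 3. Of the 28 cDC1 genes 14 had a called interaction, all toward lower (against 0.188% of all genes), with a list median of -1.51. Gpr141b had the largest, at -4.85 (SE 0.43, adjusted p = 0.00111), and WT and Id2 KO CDPs had means of 4.92 and 5.22. Tlr3 followed at -3.90 (SE 0.19, adjusted p = 1.01e-05), with CDP means of 5.47 and 5.58. Xcr1, Snx22, Gcsam, Rasgrp3 and Cd36 were likewise low in CDPs of both genotypes, and their interactions ran from -3.14 to -3.51.

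The rises gave fewer interactions. Ly6d was the 1 of 25 pDC genes with a called interaction (3.74, SE 0.56, adjusted p = 0.0196), while the pDC list median was 1.19. Over all genes 0.115% had a called interaction toward higher. Siglech had CDP means of 9.10 in WT and 9.80 in Id2 KO, and its interaction of 2.37 (SE 0.65) was not called (adjusted p = 0.294). Nfil3 (2.60, adjusted p = 0.0195), Cd93 (2.33), Cdh1 (2.25), P2ry13 (2.22), Capg (2.04) and Igfbp4 (1.80) were called. Elane rose by 2.32 in Zbtb46-GFP+ cells and was 1.09 higher in Id2 KO CDPs, and its interaction of 1.22 was not called (adjusted p = 0.806).

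Neighbours of the targeted gene were checked on chromosome 12. Of the 10 measured genes on each side of Id2 in RefSeq order, Cmpk2 was the 1 called (0.60, SE 0.12, adjusted p = 0.0331), and it was 0.61 higher than WT in Batf3 KO as well. The other 19 differed by -0.29 (Taf1b) to 0.46 (Rnf144a). On chromosome 12 as a whole 8 of 653 genes were called (1.23%), below the share over all genes, and chromosome 13 had the highest share, 3.54%.

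A few genes with differences of at least 4-fold did not pass the test, and they were picked after their values were seen. Kcnma1, a potassium channel, read 5.92 and 11.05 in WT and 13.24 and 12.82 in Id2 KO (4.55, SE 1.65, adjusted p = 0.334). Mpo, myeloperoxidase of granulocyte precursors, read 9.46 and 6.87 against 10.59 and 10.74 (2.50, adjusted p = 0.0624) and was tied at 8.67 in the replicate 1 pair. Prss34, a basophil protease, read 7.09 and 9.0 against 10.34 and 9.97 (2.11, adjusted p = 0.400). Carmil1, Epha2 and Mgl2 differed by 2.10, 2.04 and 2.03. In each of these 6 genes the WT arrays lay further apart than the Id2 KO arrays.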

How the data were processed

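Signal was measured on Affymetrix arrays of RNA from cells sorted from bone marrow. The deposited unit is intensity, a linear probe set signal, which the submitters' processing notes tie to Affymetrix Expression Console and RMA, with no version or settings, and no detection calls were used here. The number of arrays limits the precision. Values were taken to log2. Of 28853 probe sets, 21789 had a single gene symbol in the platform annotation, 1621 several, and 5443 none. The probe set with the highest mean was kept for each gene, and names were updated and chromosomes taken through RefSeq (GRCm38.p6; 21766 probe sets matched). That left 19187 genes outside X and Y.

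Fits used limma 3.58.1 in R 4.3.3: 6 group means on 12 arrays (6 residual degrees of freedom), empirical Bayes without trend, two-sided. The procedure was tested on simulated data for Id2 KO against WT over 19187 genes: it recovered 68 of 100 genes changed by log2 of 1 and 97 of 100 changed by 2, with 4 false among 169 calls. The simulated noise was normal and independent between genes and arrays, with each gene's own spread around a single mean. No shift common to many genes of an array was simulated, so these rates do not carry over to the real arrays.

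The members, lists, settings and naming rule were chosen with earlier results of these data known. Named genes are Id2, a set of regulators, the 20 largest called changes in each direction without overlap, up to 6 called members per list, up to 5 called genes per direction in the other tests, and the neighbours of Id2; uncalled list members and further called members that are given values were picked after these were seen. Alternatives covered the arrays in the fit, blocks, scaling, dim probe sets, the probe set rule, X and Y, the empirical Bayes setting and single arrays left out. Whether numbers pair arrays was checked from residual correlations: across the 12 arrays, WT and Id2 KO arrays of the same number gave -0.43, while Id2 KO and Batf3 KO arrays gave 0.48. Across all 15 arrays, where 3 lie on another scale, the values were 0.57 to 0.92. The signs differed between groups, no label says that a number marks a shared animal or day, and the numbers were not taken as pairs.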

Additional observations from a re-analysis of the deposited data

Results flagged for a closer look

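In 27 named genes the effect of losing Id2 differed between Zbtb46-GFP+ cells and CDPs by the interaction test at an adjusted p under 0.05 (limma). Over all genes it was called in 58 of 19187 (0.302%). Many genes were named for a large change in Zbtb46-GFP+ cells, which the interaction contains, or for a large interaction. The 27 therefore follows in part from the choice of names and is no independent result. Toward lower at the Zbtb46-GFP+ stage, the interaction was -4.85 for Gpr141b, -3.90 for Tlr3, -3.51 for Gcsam, -3.44 for Snx22 and -3.38 for Rasgrp3. It was -3.18 for both Cd36 and Naaa, -3.14 for Xcr1, -2.96 for Rab7b, -2.86 for P3h2, -2.60 for Hepacam2 and -2.47 for Treml4. Smaller values in this direction were -2.19 for Cd226, -2.11 for Fgd6, -2.09 for Tbxas1, -1.93 for Fgl2, -1.55 for Batf3 and -1.32 for Ifi207. Toward higher, it was 3.74 for Ly6d, 2.60 for Nfil3, 2.42 for Jchain, 2.33 for Cd93 and 2.25 for Cdh1. It was 2.22 for P2ry13, 2.04 for Capg, 1.80 for Igfbp4 and 1.63 for F13a1. Jchain, which links immunoglobulin chains and is also read in pDCs, had 4.65 and 4.62 in WT and 6.56 and 6.23 in Id2 KO Zbtb46-GFP+ cells. This difference was no longer called without Id2 KO replicate 2 or on all 15 arrays with the term. In CDPs Jchain read 4.70 and 5.73 in WT, and Id2 KO minus WT was -0.66, which enters its interaction.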

How the results depend on the processing

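None of the 72 named called genes changed sign under the alternatives run, but for several alternatives a change of sign was not possible. The fitted WT and Id2 KO Zbtb46-GFP+ arrays overlapped in no gene called, so leaving out 1 of the 4 had to keep the sign. The blocks on 12 arrays, the compared arrays alone and the empirical Bayes setting leave the fold change itself as it was. The balance of higher to lower calls turned in each comparison. For Id2 KO against WT it was 202 and 129 and turned without WT replicate 2. For Id2 KO against Batf3 KO it went from 51 and 65 to 271 and 229 with the sets block. It also turned there without Batf3 KO replicate 2. For the interaction it went from 22 and 36 to 221 and 135 with the sets block. For Id2 KO against WT (331 called) the count was 0 on all 15 arrays without a term, 192 with the term, 525 with the replicate block, 1167 with the 2 sets of arrays by 75th percentile as a block, 598 after quantile normalization, and 106 to 268 with 1 array left out. For Id2 KO against Batf3 KO (116) it was 0 without a term, 221 on the compared arrays alone, 500 with the sets block, 228 after quantile normalization, and 37 to 55 with 1 array left out. For the interaction (58) it was 0 without a term, 20 with it, 114 and 22 with the replicate block on 12 and 15 arrays, 356 with the sets block, 146 after quantile normalization, and 21 to 78 with 1 array left out. For WT and Id2 KO Zbtb46-GFP+ arrays the 2 sets cross the replicate numbers, so the 1167 is also the count of the crossed pairing. Of 72 named genes called, 33 kept the call with each of the 4 arrays left out in turn, 55 on 15 arrays with the term, and 71 with the replicate block (Zeb2 lost it). Leaving out an array leaves its group with 1, which is then assumed to vary like the other groups. The cause of these shifts was not tested.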
